A study of Mus musculus with 101 samples.

Results

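The 10 genes described here encode enzymes that make glutathione, restore it to its reduced form or use it: Gclc, Gclm, Gss, Gsr, Gstm1, Gstm2, Gstm6, Gsta4, Gstp1 and Gpx4. They were chosen by name, as genes of glutathione synthesis and glutathione transferases together with the reductase and a peroxidase of the same system, and they are 10 of the 15423 genes in the table of expression values. All 10 passed the filter on low values used in the tests, a mean of at least 0.5 normalized counts.

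Glutathione is a small peptide of glutamate, cysteine and glycine that keeps the inside of cells reduced. Its synthesis starts with glutamate-cysteine ligase, the step that usually limits the rate, and ends with glutathione synthetase. Glutathione transferases couple it to reactive molecules, among them the epoxides that cells form from polycyclic aromatic hydrocarbons such as benzo[a]pyrene, and peroxidases spend it to remove hydroperoxides.

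The study sequenced polyadenylated RNA of germ cells from single mouse embryos at E13.5, when female germ cells enter meiosis and male germ cells stop dividing inside cords formed by Sertoli cells. Benzo[a]pyrene in sesame oil was given by mouth to F0 dams during pregnancy, at 0.033 mg/kg-day, 0.2 mg/kg-day or 2 mg/kg-day. Vehicle dams received the oil alone. Embryos of the F1, F2 and F3 generations were collected. The question was which genes differ with dose, sex and generation. There were 48 female and 53 male embryos, from 56 dams, taken here as the mothers that carried them. For F2 and F3 embryos these are not the dosed F0 dams. The labels do not name the F0 dam behind an F2 or F3 embryo, so the number of F0 dams in those groups is unknown.

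F1 embryos were carried by the dosed dams, which were fed daily from E6.5 to E11.5. F2 and F3 embryos descended from dams fed from E6.5 to E15.5, through matings within a dose. F2 embryos arose from germ cells that were inside F1 fetuses during dosing, and F3 embryos had no such contact. The length of dosing thus differs between F1 and the later generations. All embryos, vehicle ones included, were OG2 mice on a C57BL/6J background, which carry an EGFP transgene under the Pou5f1 promoter. The gonads were dissociated together with the mesonephros and EGFP-positive cells were sorted, so each library holds what passed that gate. Vehicle groups held 5 females and 5 males in F1, 6 and 6 in F2, and 6 and 6 in F3. At 0.033 mg/kg-day there were 2 females and 2 males in F1, 3 and 3 in F2, and 4 and 4 in F3. At 0.2 mg/kg-day the groups had 5 females and 6 males in F1, 3 and 3 in F2, and 2 and 4 in F3. At 2 mg/kg-day they had 5 females and 8 males in F1, 3 and 3 in F2, and 4 and 3 in F3. Some male groups held brothers of 1 litter. The 6 F1 males at 0.2 mg/kg-day came from 5 dams and the 8 F1 males at 2 mg/kg-day from 7. The 4 F3 males at 0.2 mg/kg-day came from 3 dams. All doses of a sex and generation were compared with the same vehicle embryos, so those comparisons share controls.

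Values are normalized counts: reads of a gene, scaled by the authors to the library's size with edgeR's TMM factors. Total reads assigned to genes could be recovered for 99 libraries and ran from 5004382 to 87240533, with a median of 7789673. The 11 deepest libraries, all from F1 and from 6 dams, had at least 21247642 reads, against at most 9745816 in the other F1 libraries. Germ cell markers were abundant in both sexes: the sum of 10 markers had a median of 4062 in females and 4212 in males, and its most abundant gene was Dppa3. Sertoli markers were low but present in males, as given below beside the transferases. In bulk samples like these, fewer cells of a type and less RNA per cell cannot be told apart.

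Sex was the comparison in which these genes differed. In 17 vehicle males against 17 vehicle females of all generations, limma (adjusted p under 0.05 over all genes tested) called 7 of the 10 genes, 4 higher and 3 lower in males, while it called 7502 of 13288 genes, 56.5%. The median difference, male minus female on the log2 scale, was 0.04 over the 10 genes and 0.00 over all genes tested. A count of 7 of 10 is near that background, so the genes are described below by their sizes and patterns. These 17 and 17 embryos are also the vehicle controls of the dose comparisons.

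**Figure D1:**
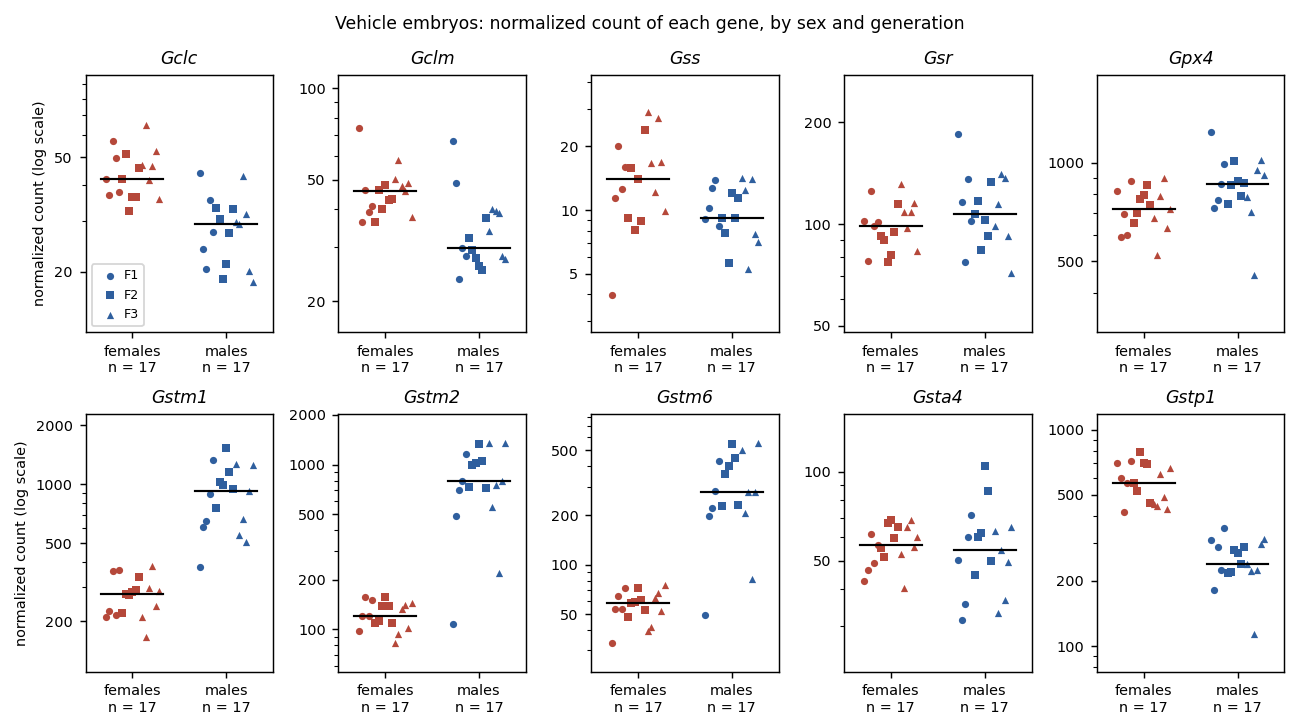
Normalized counts (log scale) of the 10 genes in each of 17 vehicle females and 17 vehicle males, with symbols for the generation and a line at the median. All 17 males lie below every female for Gstp1, and 16 of 17 males lie above every female for Gstm1, Gstm2 and Gstm6.

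Gclc, on chr9:77754535-77794485 (GRCm38, as are all positions here), encodes the catalytic subunit of glutamate-cysteine ligase. It ran from 32.6 to 64.8 normalized counts in vehicle females, with a median of 42.0, and from 18.5 to 44.3 in vehicle males, with a median of 29.4. Thus 12 of 17 males lay below every female and 8 females lay above every male, with overlap between 32.6 and 44.3. The difference was -0.65 on the log2 scale (95% interval -0.86 to -0.43, limma adjusted p 2.29e-07), 1.56-fold lower in males. Both sexes were sequenced in 15 vehicle litters, and the sister was higher than the brother in 14.

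Gclm, on chr3:122245557-122270732, encodes the modifier subunit of the ligase. Its vehicle values ran from 36.4 to 73.9 in females (median 45.8) and from 23.7 to 66.9 in males (median 29.9). The ranges overlapped: 11 of 17 males lay below every female, 4 from F2 and F3 lay between 37.4 and 40.2, and 2 F1 males, both deep libraries, had 48.7 and 66.9. Males were lower by a log2 difference of -0.45 (95% interval -0.67 to -0.23, adjusted p 0.00028), and the sister was higher in all 15 litters. Gss, on chr2:155563181-155592810, encodes glutathione synthetase and had the lowest level of the 10. It ran from 3.97 to 29.1 in vehicle females (median 14.0) and from 5.27 to 14.2 in vehicle males (median 9.20), and 8 females lay above every male. The female at 3.97 was an F1 embryo from a deep library, the same that had 73.9 of Gclm. Its difference of -0.48 (95% interval -0.93 to -0.03) did not pass the test in limma, with an adjusted p of 0.0630, and it did pass in edgeR's quasi-likelihood test on recovered reads, with -0.59 and an adjusted p of 0.0264. With dam as a block in limma it passed, with an adjusted p of 0.0246, and the sister was higher in 12 of 15 litters. Over its alternatives that adjusted p ran from 0.0125 to 0.421.

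Gsr, on chr8:33652523-33698163, encodes glutathione reductase, which returns oxidized glutathione to the reduced form with NADPH. Vehicle females ran from 77.3 to 131 (median 98.4) and vehicle males from 71.7 to 185 (median 107). The sexes overlapped over nearly the whole range, with 5 males above every female and 2 below. The difference of 0.14 did not pass the test (95% interval -0.08 to 0.36, adjusted p 0.272). Gpx4, on chr10:80047166-80056439, encodes the peroxidase that reduces lipid hydroperoxides in membranes. It ran from 524 to 895 in vehicle females (median 722) and from 455 to 1238 in vehicle males (median 858). Although 15 of 17 males lay above the female median, 1 male lay below every female. Its difference of 0.22 (95% interval 0.05 to 0.39) passed with an adjusted p of 0.0203 and missed the threshold when F1 or F2 embryos were left out, with adjusted p of 0.105 and 0.0820 (0.0106 to 0.105 over all its alternatives).

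The mu class transferases were the genes with the largest differences. Gstm2, on chr3:107981702-107986453, ran from 83.2 to 157 in vehicle females (median 121, mean 124 ± 23.0 SD, n = 17) and from 107 to 1355 in vehicle males (median 795, mean 832 ± 368 SD, n = 17). In F1 the 5 vehicle females had 98.5, 121, 121, 149.9 and 156, and the 5 vehicle males 107, 485, 703, 796 and 1163. In F2 and F3 every vehicle male lay above every female of its generation, and in F1 4 of 5 did. The exception was the F1 male at 107, a deep library with 23833292 reads. The difference was 2.55 (95% interval 2.11 to 2.98, adjusted p 1.04e-18), 5.84-fold higher in males.

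Gstm6, on chr3:107938847-107943749, ran from 33.4 to 75.4 in vehicle females (median 58.8) and from 49.6 to 555 in vehicle males (median 278). The same F1 male was the lowest, at 49.6, and the other 16 males lay above every female. The difference was 2.25 (95% interval 1.82 to 2.68, adjusted p 2.94e-16). Gstm1, on chr3:108012255-108017973, ran from 166 to 384 in females (median 276) and from 379.8 to 1525 in males (median 921), again with 16 of 17 males above every female. Its difference was 1.67 (95% interval 1.36 to 1.98, adjusted p 7.70e-17). In the 15 litters the brother was higher in all 15 for each of these 3 genes, by a median of 2.87 for Gstm2, 2.55 for Gstm6 and 1.86 for Gstm1 on the log2 scale.

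Gsta4, on chr9:78182774-78209349, encodes an alpha class transferase that acts on lipid aldehydes such as hydroxynonenal. Vehicle females ran from 40.3 to 68.9 (median 56.5) and vehicle males from 31.6 to 105 (median 54.3). Males were more spread out, with 3 above every female and 4 below every female, and the difference of -0.07 did not pass the test (95% interval -0.31 to 0.18). Gstp1, on chr19:4035407-4037985, encodes the pi class transferase. It ran from 416 to 789 in vehicle females (median 569) and from 114 to 352 in vehicle males (median 241). No value overlapped: all 17 males lay below every female, also within each generation. The difference was -1.21 (95% interval -1.43 to -0.998, adjusted p 1.14e-17), 2.32-fold lower in males, and the sister was higher in all 15 litters.

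Within single generations the same directions were seen for these genes where they passed. In F1, 5 of the 10 genes passed against 23.8% of all genes tested: Gstm1, Gstm2 and Gstm6 were higher (1.41, 1.99 and 1.83) and Gclc and Gstp1 lower (-0.58 and -1.16). Gclc in F1 was at the threshold, with an adjusted p of 0.04997, and missed it when any of 6 embryos was left out: males 2, 3 and 5 (adjusted p 0.117, 0.158 and 0.0886) or females 1, 3 and 4 (0.0713, 0.128 and 0.104). Counting alternatives and left-out embryos, its F1 adjusted p ran from 0.00667 to 0.158. In F2, 6 of 10 passed against 41.1% of all genes, with differences of 1.91 for Gstm1, 2.91 for Gstm2, 2.58 for Gstm6, -0.58 for Gclc, -0.53 for Gclm and -1.29 for Gstp1.

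In F3, 7 of 10 passed against 32.2% of all genes. They were Gstm1 (1.66), Gstm2 (2.64), Gstm6 (2.27), Gclc (-0.76), Gclm (-0.47), Gstp1 (-1.19) and Gss (-0.84, adjusted p 0.0421). Gss in F3 missed the threshold in 7 of 12 fits that left out 1 embryo: without females 1, 2, 4 and 5 its adjusted p was 0.114, 0.0609, 0.0968 and 0.0601, and without males 3, 5 and 6 it was 0.103, 0.0807 and 0.0889. Gclm in F3 missed it without female 2 (0.0539), male 5 (0.0528) or male 6 (0.0521). A pass in 1 generation and not in another is not a difference between generations: the sex difference was not compared between generations.

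Levels of different genes are compared per kilobase of merged exons. In vehicle females the order of medians was Gpx4 (419 normalized counts per kilobase), Gstp1 (367), Gstm1 (188), Gstm2 (71.9), Gsta4 (44.6), Gsr (35.7), Gstm6 (29.6), Gclc (11.2), Gclm (7.28) and Gss (2.36). Neighbours in that order overlapped in range except Gstp1 with Gstm1, Gstm1 with Gstm2, and Gclm with Gss. In vehicle males the order was Gstm1 (625.2), Gpx4 (498), Gstm2 (473), Gstp1 (155), Gstm6 (140), Gsta4 (42.9), Gsr (38.8), Gclc (7.82), Gclm (4.75) and Gss (1.56). There the neighbours overlapped except Gsr with Gclc, and Gclm with Gss. In both sexes the subunits of the ligase and the synthetase were thus the lowest of the 10, and in males Gstm1 had the highest median.

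Sequence shared between relatives limits how reads can be assigned. Of the 75-base stretches in the transcripts of Gstp1, 29.2% also occur in Gstp2, and 29.8% of those of Gpx4 occur in the pseudogene Gpx4-ps2. Gstp2 was also lower in vehicle males, by -1.20 on the log2 scale (limma adjusted p 1.02e-15), with means of 438 in females and 192 in males. The sex difference of Gstp1 is thus not particular to it. For Gstm1 the share found in any other gene was 11.7%, for Gclm 2.84%, for Gstm6 2.59% and for Gstm2 1.85%, and for Gclc, Gss, Gsr and Gsta4 it was 0. Exons of Gss overlap those of Acss2 on the opposite strand over 6.68% of their length. How reads from such stretches were placed could not be read from the values.

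Gstm1, Gstm2 and Gstm6 lie in a cluster of 7 mu class genes on chromosome 3, within 149074 bases. The genes of the cluster did not move alike between the sexes. From the lower coordinate up, the male minus female differences in vehicle embryos were 0.23 for Gstm5, 3.09 for Gstm7, 2.25 for Gstm6, 0.18 for Gstm3, 2.55 for Gstm2, 1.67 for Gstm1 and 0.03 for Gstm4. Gstm5, Gstm3 and Gstm4 did not pass the test, with adjusted p of 0.405, 0.147 and 0.914. Gstm3 lies between Gstm6 and Gstm2 and had a mean of 343 in females and 391 in males, and Gstm4 had 4.13 and 4.11. Gstm7, the gene with the largest difference of the cluster, had a mean of 5.47 in females and 65.1 in males.

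**Figure D2:**
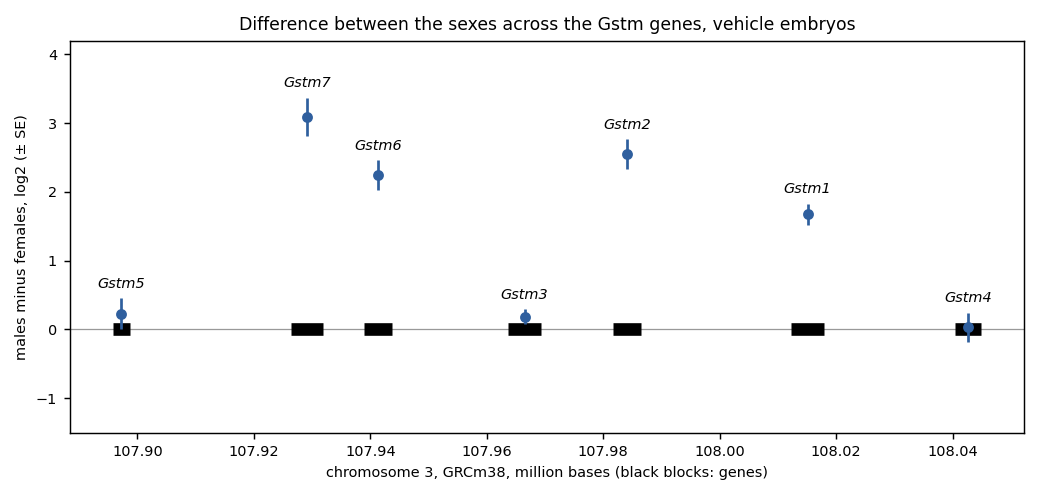
Difference between vehicle males and vehicle females (log2, error bars 1 SE) for the 7 Gstm genes, plotted at their positions on chromosome 3. Gstm7, Gstm6, Gstm2 and Gstm1 lie between 1.67 and 3.09, and Gstm5, Gstm3 and Gstm4 between 0.03 and 0.23.

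Promoter sequence was read for 7 of the 10 genes from RefSeq (GRCm38.p6), as the 250 bases before each start, and searched on both strands for TGACNNNGC (the core of the antioxidant response element), GCGTG (the core of the xenobiotic response element), TGAGTCA (the AP-1 core) and TATAAA. Of 32851 promoters, 10.2% hold TGACNNNGC, 28.2% GCGTG, 4.46% TGAGTCA and 12.4% TATAAA. A match is a description of letters and was not tested as a binding site. The sequences of the mu class genes that moved together are shown so that they can be compared; all lie on the minus strand, end at the first base before the annotated gene and carry matches in capitals. They are Gstm1 (chr3:108017974-108018223), Gstm2 (chr3:107986454-107986670) and Gstm6 (chr3:107943750-107943984).
Gstm1: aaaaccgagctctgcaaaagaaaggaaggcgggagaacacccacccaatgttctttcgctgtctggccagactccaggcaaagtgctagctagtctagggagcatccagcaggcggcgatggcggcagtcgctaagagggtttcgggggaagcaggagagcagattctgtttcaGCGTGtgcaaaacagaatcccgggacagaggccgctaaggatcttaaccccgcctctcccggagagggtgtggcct
Gstm2: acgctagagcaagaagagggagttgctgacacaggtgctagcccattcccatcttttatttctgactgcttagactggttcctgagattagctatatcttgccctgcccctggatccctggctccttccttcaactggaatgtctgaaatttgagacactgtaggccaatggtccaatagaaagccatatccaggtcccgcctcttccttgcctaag
Gstm6: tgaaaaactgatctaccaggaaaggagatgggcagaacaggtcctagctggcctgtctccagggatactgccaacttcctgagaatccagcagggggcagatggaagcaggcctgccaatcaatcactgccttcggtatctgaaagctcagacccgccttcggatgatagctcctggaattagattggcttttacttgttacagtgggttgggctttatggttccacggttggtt
Gstm1 holds GCGTG 1 time in this window, and the windows of Gstm2 and Gstm6 hold none of the motifs searched. The other window of Gstm1, before a different start, holds TATAAA 30 bases before that start. GCGTG also occurs 3 times before Gclm, 1 time each before Gss and Gstp1, and 0 to 2 times in the 4 windows of Gpx4.

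Gclm holds the antioxidant core on the minus strand, and Gstp1 holds the AP-1 core on the plus strand of the gene, and these were the matches to those motifs among the 13 windows of the 7 genes. The 30 bases around each are given with the match in capitals: Gclm on the plus strand of chr3:122245412-122245441, and Gstp1 on the minus strand of chr19:4037968-4037997.
Gclm: cgctcccgggcGCACCGTCAactctcacga
Gstp1: ctccaacgtgtTGAGTCAgcatccggggcg
The match of Gclm starts 134 bases before the start of its transcript, and that of Gstp1 74 bases before the start in RefSeq. That start lies inside the gene as placed above, so all but 1 base of the Gstp1 match falls within the annotated gene.

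Genes with patterns most like each member were looked for among 8485 genes over all embryos, by Pearson r of log2 values after the mean of each sex was subtracted. Gstm2 was most like Gstm6 (r 0.98), Akr1b8 (0.91) and Defb19 (0.90), and Gstm6 was most like Gstm2 (0.98), Akr1b8 (0.91) and Gstm1 (0.89). Gstm1 was most like Gstm6 (0.89), Gstm2 (0.86) and Rhox8 (0.82). Gsta4 was most like Vamp8 (0.81), Gstm1 (0.78) and Vim (0.76).

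For Gstp1 the nearest were Gstp2 (0.96), with which it shares sequence, Pigyl (0.88) and Fis1 (0.88), and for Gpx4 they were Phb, Chchd10 and Plekhj1 (0.87 each). The ligase subunits had lower values: Gclc with Api5 (0.79), Dbf4 (0.79) and Ppp3r1 (0.78), and Gclm with Mcmbp (0.80), Gm5801 (0.79) and Atpaf1 (0.78). Gss had 0.87 with Dus1l and 0.87 with Fbxo31, and Gsr was most like Fbxo5 (0.82), Utp18 (0.82) and Fam108c (0.81). These values are descriptions: the embryos share litters, and depth differs among them.

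Levels of Gstm2 moved with markers of Sertoli cells among males. The list had 6 markers (Amh, Sox9, Dhh, Cldn11, Aard and Fgf9), of which 5 were tested and all 5 were higher in vehicle males than in vehicle females. In vehicle embryos their sum ran from 11.9 to 36.5 in females (median 19.8) and from 19.3 to 261 in males (median 132). Over embryos of all doses it ran from 11.9 to 113 in females (median 20.6) and from 8.07 to 378 in males (median 117), and Aard was the most abundant, with a median of 20.1 in females and 105 in males. Over all doses Amh, Sox9 and Dhh had a median of 0 in females and of 1.54, 3.66 and 2.82 in males.

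Over 50 dams with male embryos, littermates averaged, log2 levels of Gstm2 and of the Sertoli sum had a Pearson r of 0.83 and a Spearman rho of 0.86. Both permutation p-values were 1e-05, the smallest that 100000 permutations can give, and 4.67e-05 and 4.2e-05 adjusted over the 42 relations computed. Without the 2 dams farthest from the median r was 0.84, and within F1, F2 and F3 it was 0.71, 0.96 and 0.95. With Aard left out of the sum, a choice made after its values were seen, r was 0.84 and rho 0.85 (permutation p 1e-05 for both). Over 48 dams with female embryos r was -0.23 (permutation p 0.125) and rho 0 (permutation p 1). Without Aard it was -0.47 in females (permutation p 0.00114, adjusted 0.00342; rho -0.33, adjusted p 0.0529) at a median sum of 0.640, with -0.70, 0.59 and -0.45 within F1, F2 and F3. The sexes were not compared in this relation. The part of Sertoli RNA in the sex difference and in the spread among males was not tested.

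Single vehicle males can be read the same way. The F1 male with 107 normalized counts of Gstm2 had a Sertoli sum of 52.3 (1.23 without Aard), and an F3 male with 221 of Gstm2 had a Sertoli sum of 19.3 (1.597 without Aard). The F3 males with 1347 and 1355 of Gstm2 had sums of 196 and 214. An F3 male with a sum of 201 had 757 of Gstm2, and the highest vehicle sum, 261, belonged to an F2 male with 1058. Among vehicle males 19.3 was the lowest sum of all 6 markers and 1.23 the lowest without Aard, so the embryo with the lowest Gstm2 had the lowest sum only when Aard was left out.

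**Figure D3:**
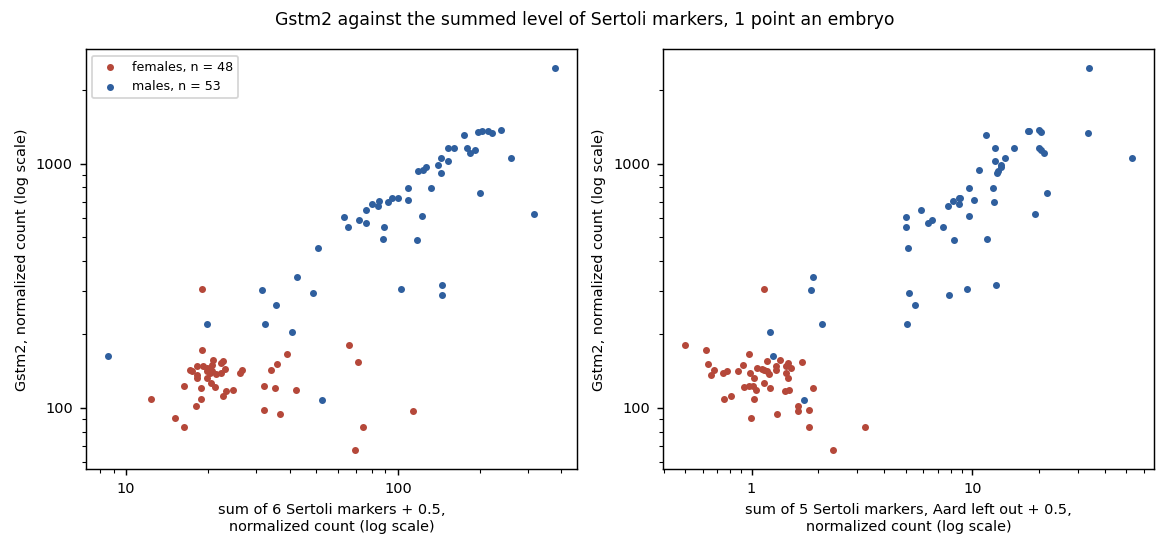
Normalized counts of Gstm2 against the summed Sertoli markers (both axes log scale, 0.5 added to the sum), 1 point an embryo, with all 6 markers on the left and without Aard on the right. Males spread from 107 to 2452 of Gstm2 along with the sum, and females stay between 67.1 and 307.

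Other members were related to Gstm2 to different degrees. Among males r with Gstm2 was 0.99 for Gstm6, 0.93 for Gstm1, 0.65 for Gsta4 and 0.39 for Gstp1 (permutation p 1e-05, 1e-05, 2e-05 and 0.00504; rho 0.99, 0.95, 0.75 and 0.49). It was negative for Gclc (-0.53), Gclm (-0.65) and Gsr (-0.69), with permutation p of 6e-05, 1e-05 and 1e-05 and rho of -0.50, -0.64 and -0.64. Within each of F1, F2 and F3 those signs were the same: Gsr, for example, had -0.76, -0.49 and -0.71. For Gss (-0.11) and Gpx4 (-0.04) p was 0.432 and 0.777. The summed fetal Leydig markers also moved with Gstm2 in males (r 0.64, rho 0.70, permutation p 1e-05 for both), at a median sum of 5.12. So did macrophage markers (r 0.49, rho 0.45, adjusted p 0.00123 and 0.00307; 0.50, 0.61 and 0.53 within F1, F2 and F3), at a median sum of 6.98. Endothelial markers had r of -0.35 (adjusted p 0.0284; rho -0.32, adjusted p 0.0529). Most of their sum was Pecam1, with a median of 24.6 in males against 34.9 for the sum, and Kdr and Emcn had medians of 0. Total reads had r of -0.35 (permutation p 0.0168, adjusted 0.0353; -0.55, 0.15 and 0.32 within F1, F2 and F3) and rho of -0.19 (permutation p 0.181). Among females r with Gstm2 was 0.88 for Gstm6, 0.68 for Gstm1 and 0.42 for Gsta4, and -0.49 for Gclm (adjusted p 0.00152; -0.63, 0.25 and -0.53 within F1, F2 and F3). Total reads had r of -0.38 with Gstm2 in females (adjusted p 0.0333; -0.60, 0.23 and 0.18 within F1, F2 and F3) and rho of -0.23 (permutation p 0.127).

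Markers of the germ cells' own sex followed the labels. All 5 female germ cell markers tested were lower in vehicle males, and over embryos of all doses their sum had a median of 1198 in females and 233 in males, with Sycp3 the most abundant. Of 6 male germ cell markers 5 were higher in vehicle males, with a median sum over all doses of 4.66 in females and 129.9 in males and with Lefty2 the most abundant in males. In males the sum of male germ cell markers had r of -0.42 with Gstm2 (permutation p 0.00274, rho -0.41).

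Other genes of the glutathione system gave mixed directions between the sexes of vehicle embryos, and the counts called stand beside 56.5% of all genes called in that comparison. Among 9 tested genes of cysteine supply, glutathione synthesis and turnover, 4 were higher and 2 lower in males, with a median difference of 0.36 against 0.00 over all genes. The genes of smallest p there were Ggct (0.54), which acts in the breakdown of gamma-glutamyl peptides, Ggt1 (-1.496), the gamma-glutamyltransferase of the cell surface, and Abcc1 (0.64), an exporter of glutathione conjugates. Of 24 genes on a list of other glutathione transferases and their relatives 12 were higher and 5 lower, with a median of 0.36. Mgst2 (4.33) had a mean of 0.775 in females and 25.9 in males, Ptgds (6.64), which encodes a prostaglandin D synthase of the lipocalin family and no transferase, had 0.392 and 122, and Gstm7 (3.09) was given above.

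Of 28 genes tested on a list of peroxidases, glutaredoxins, thioredoxins and other protective enzymes, superoxide dismutases and glyoxalases among them, 8 were higher and 11 lower, with a median of -0.13. Gpx8 (3.43) and Gpx1 (0.99) were higher and Prdx4 (-0.81) lower in males. Of 11 genes of NADPH supply 3 were higher and 3 lower, with a median of -0.17, led by Me1 (1.34), Tkt (-0.69) and Nnt (0.49). Among 17 regulators and targets of NRF2, the factor that binds the antioxidant element, 6 were higher and 4 lower, with a median of 0.09, and the smallest p belonged to Blvrb (-1.25), Maff (-1.28) and Fth1 (-0.30). Of 11 partners of GPX4 in ferroptosis 3 were higher and 2 lower, with a median of -0.11, and Aifm2 (-1.14), Tfrc (-0.59) and Lpcat3 (0.30) had the smallest p.

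With all embryos in the limma fit, none of the 10 genes passed the threshold at any dose of benzo[a]pyrene. Members were called by edgeR's likelihood ratio test within F2 males, and by limma with embryos left out, as given below. The likelihood ratio test is the one the paper used for differential genes. In the 8 comparisons over all generations 0 of 10 genes passed in each. The share of all genes called was 1.36% (181 of 13288) in females at 2 mg/kg-day and 0% in the other 7: females at 0.033, at 0.2 and over all doses, and males at 0.033, at 0.2, at 2 and over all doses. At an unadjusted p under 0.05, members numbered 0, 0, 1 and 0 in females and 5, 2, 4 and 0 in males, in the order 0.033, 0.2, 2 and all doses. Over all genes tested the shares at that threshold were 2.08%, 1.05%, 23.3% and 8.67% in females and 4.67%, 3.36%, 3.91% and 1.14% in males. The edgeR quasi-likelihood and likelihood ratio tests on recovered reads also called 0 of the 10 genes in these 8 comparisons. Both called some other genes: 117 by the likelihood ratio and 7 by the quasi-likelihood test in females at 2 mg/kg-day.

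In females at 2 mg/kg-day the member that reached an unadjusted p under 0.05 was Gpx4, at 0.22 (95% interval 0.03 to 0.40, adjusted p 0.142). Over its alternatives this difference ran from 0.08 to 0.34, with limma or edgeR adjusted p from 0.0914 to 0.778. In males of all generations together the mu class genes lay above vehicle at the lowest dose and below it at the others. Values of F1 males at 0.2 mg/kg-day, which overlapped those of vehicle, are given below. At 0.033 mg/kg-day the differences were 0.45 for Gstm1, 0.63 for Gstm2 and 0.62 for Gstm6, with 0.33 for Gstp1 and -0.27 for Gclc, all with an adjusted p of 0.894. Over the alternatives they ran from 0.22 to 0.60 for Gstm1, 0.29 to 0.86 for Gstm2 and 0.25 to 0.92 for Gstm6, and none passed. At 0.2 mg/kg-day Gstm2 had -0.52 and Gstm6 -0.60, with adjusted p of 0.9997 each and ranges of -1.09 to -0.21 and -1.16 to -0.28. At 2 mg/kg-day they were -0.40 for Gstm1, -0.51 for Gstm2, -0.60 for Gstm6 and -0.30 for Gsta4, with an adjusted p of 0.997, and over the alternatives -0.47 to -0.29, -0.58 to -0.31, -0.65 to -0.43 and -0.35 to -0.19. The 5 Sertoli markers tested had median differences of 0.38, -0.70 and -0.43 in males at 0.033, 0.2 and 2 mg/kg-day, with 1, 4 and 1 of them at an unadjusted p under 0.05 and 0 passing, and whether they account for the transferases was not tested. The difference between the sexes in the effect of all doses passed for 0 of 10 genes and 0% of all genes in limma, 0 and 261 of them at an unadjusted p under 0.05, and edgeR called 7 genes by quasi-likelihood and 5 by likelihood ratio, none of them a member.

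Within generations 0 of 10 genes passed in each of 24 comparisons in limma. The share of all genes called was 0.00733% (1 gene) in F1 females at 2 mg/kg-day, 0.145% (19 genes, all lower) in F2 males at 0.2 mg/kg-day and 0% in the other 22. Members with an unadjusted p under 0.05 numbered 1 in F1 females at 2 mg/kg-day, 6 in F1 males at 0.033, 4 each in F2 males at 0.2, at 2 and over all doses, 2 in F3 males at 0.2, and 0 elsewhere. In the same order, 9.89%, 6.34%, 9.58%, 3.71%, 4.77% and 10.6% of all genes tested were under 0.05 unadjusted. The members counted are not separate results, as several move together. Among males r with Gstm2 was 0.99 for Gstm6, 0.93 for Gstm1 and 0.65 for Gsta4. The count in F1 males at 0.033 mg/kg-day rests on 2 embryos. The edgeR quasi-likelihood test called 0 members in these comparisons and the likelihood ratio test called 3, all in F2 males at 0.2 mg/kg-day, where it called 76 of 13083 genes.

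F2 males at 0.2 mg/kg-day came nearest to the threshold. For Gstm2 the 3 embryos had 164, 607 and 710, against 725 to 1336 in 6 vehicle F2 males (median 1008). All 3 lay below every vehicle male of their generation. For Gstm1 they had 397, 629 and 824 against 760.1 to 1525 (median 1005), for Gstm6 57.6, 183 and 251 against 229 to 548 (median 379), and for Gsta4 30.1, 28.6 and 49.9 against 44.6 to 105 (median 61.1). For these 3 genes 1 of the 3 embryos lay inside the vehicle range and the others below it. The differences were -0.82 for Gstm1, -1.21 for Gstm2, -1.34 for Gstm6 and -0.88 for Gsta4, with limma adjusted p of 0.0675, 0.0694, 0.0600 and 0.0645.

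The likelihood ratio test gave adjusted p of 0.0476 for Gstm1, 0.0494 for Gstm6 and 0.0381 for Gsta4. In limma, where embryos were left out in turn, the outcome depended on single embryos. With all F2 embryos limma called 19 of 13083 genes and 0 members in this comparison. The number of all genes called in the fits with an embryo left out is not given here, so member calls in them stand without a background share. Without the embryo at 710 of Gstm2 (0.2 mg/kg-day, replicate 1) all 4 genes passed in limma, with adjusted p of 0.00813, 0.00911, 0.00455 and 0.00702 for Gstm1, Gstm2, Gstm6 and Gsta4, and without the vehicle embryo at 727 (replicate 1) they passed with 0.0214, 0.0418, 0.0214 and 0.0176. Without the vehicle embryo at 725 (replicate 6) Gstm6 (0.0401) and Gsta4 (0.0462) passed. Without the embryo at 164 the differences were nearer 0, at -0.54 for Gstm2 and -0.71 for Gstm6, with adjusted p of 0.723 and 0.596.

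Sertoli markers moved with these values. Their sums in the 3 F2 males at 0.2 mg/kg-day were 109, 63.0 and 8.07, against 94.6 to 261 in vehicle F2 males (median 146), and the embryo with 8.07 was the one with 164 of Gstm2. All 5 markers tested had an unadjusted p under 0.05 in this comparison, with a median log2 difference of -1.71, and 0 passed. Summed fetal Leydig markers of the 3 embryos were 3.40, 2.73 and 1.39 in the same order. In vehicle F2 males they ran from 3.28 to 21.5 (median 8.79). The part of either set of markers in the differences of the transferases was not tested.

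**Figure D4:**
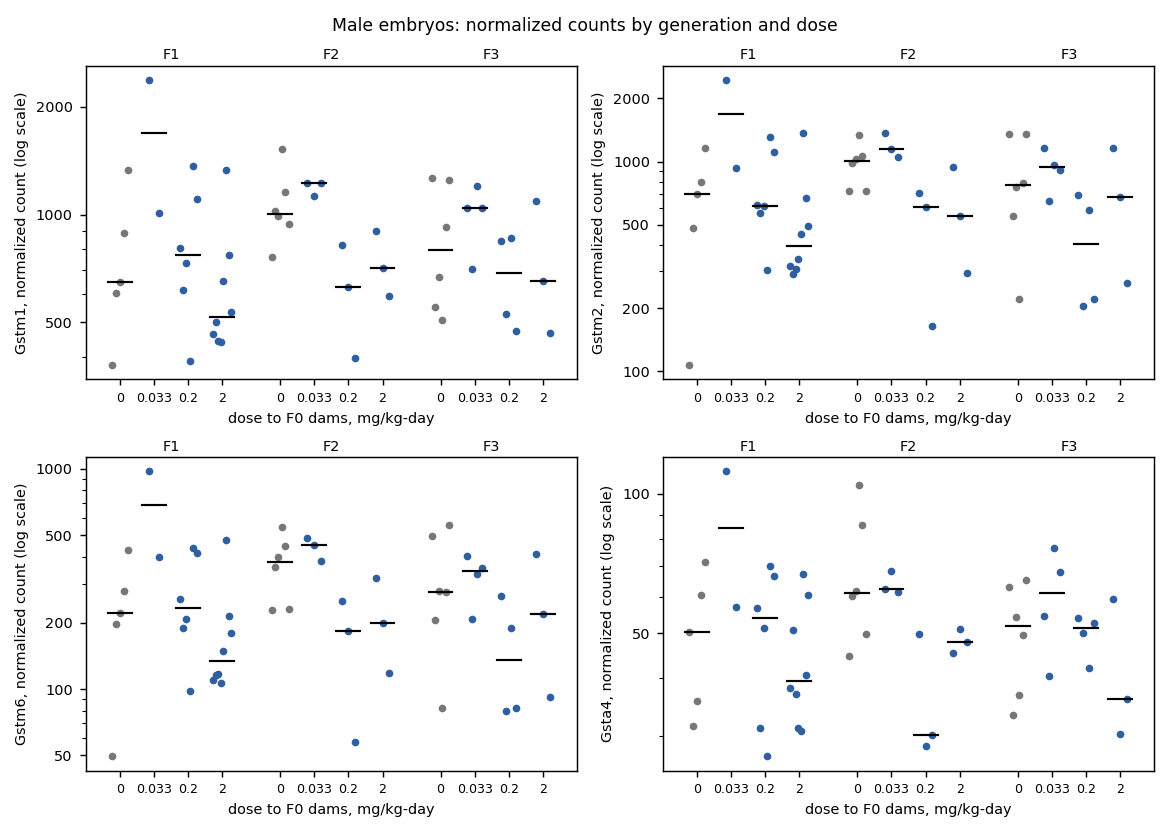
Normalized counts (log scale) of Gstm1, Gstm2, Gstm6 and Gsta4 in the 53 male embryos by generation and dose to F0 dams, 1 point an embryo with a line at the median. The 3 F2 males at 0.2 mg/kg-day have 164 to 710 of Gstm2 against 725 to 1336 in vehicle F2 males.

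F1 males at 0.033 mg/kg-day were 2 embryos, with 934 and 2452 of Gstm2 against 107 to 1163 in the 5 vehicle F1 males. The embryo at 2452 had the highest Gstm2, Gstm1 (2379), Gstm6 (977) and Gsta4 (112) of all 53 males, and the highest Sertoli sum, 378. Its macrophage sum, 34.8, was also the highest of the males (median 6.98), and its fetal Leydig sum was 13.3 (male median 5.12). The other lay inside the vehicle range for Gstm2 and had a Sertoli sum of 118. The log2 differences were 1.57 for Gstm2, 1.13 for Gstm1 and 1.70 for Gstm6, with limma adjusted p of 0.727, 0.727 and 0.713. Leaving out 1 embryo moved them from 0.88 to 2.27, from 0.51 to 1.75 and from 1.05 to 2.34, the lowest without the embryo at 2452 and the highest without the other.

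F3 males at 0.2 mg/kg-day had 204, 221, 587 and 696 of Gstm2, against 221 to 1355 in vehicle F3 males (median 776). All 4 lay below the vehicle median, with Sertoli sums of 40.2, 31.8, 71.6 and 91.7 in the same order. The embryos at 204 and 696 were littermates, so the 4 came from 3 dams. The difference was -0.96 for Gstm2 and -0.98 for Gstm6, with limma adjusted p of 0.377 and 0.353. F2 males at 2 mg/kg-day had 294, 549 and 944 of Gstm2, with a difference of -0.84 and an adjusted p of 1. In F1 males at 0.2 and 2 mg/kg-day no member reached an unadjusted p under 0.05. Those at 0.2 mg/kg-day had 305, 571, 613, 620, 1108 and 1309 of Gstm2. The vehicle F1 males had 107, 485, 703, 796 and 1163, so these ranges overlapped. Median Sertoli sums were 148 in F1 males at 0.2 mg/kg-day and 117 in vehicle F1 males.

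Over F2 and F3 alone, without F1, limma called 97 of 13111 genes in males at 0.2 mg/kg-day against vehicle, 95 of them lower. Gstm2 (-1.09, limma adjusted p 0.0214) and Gstm6 (-1.16, limma adjusted p 0.0134) were among the 97. Over all the alternatives of that comparison the adjusted p ran from 0.0214 to 1 for Gstm2 and from 0.0134 to 1 for Gstm6, and this was the alternative that passed. Median Sertoli sums of males at 0.2 mg/kg-day were 63.0 in F2 and 55.9 in F3, against 146 and 152 in vehicle males. The part of Sertoli RNA in this call was not tested.

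Generations of vehicle embryos did not differ in any of the 10 genes past the threshold. In the 4 comparisons, F2 and F3 against F1 in each sex, 0 of 10 genes and 0% of all genes were called in limma. At an unadjusted p under 0.05 there were 4 members in males of F2 against F1, where 4.70% of all genes were, and 0 in the others. Vehicle male medians of Gstm2 were 703 in F1, 1008 in F2 and 776 in F3, with F2 minus F1 at 0.91 (adjusted p 0.971), and the ranges overlapped. Over its alternatives that difference ran from 0.56 to 0.91, and it passed in none. The effect of all doses, given for longer to the dams behind F2 and F3 than to those of F1, also did not pass a test between generations: 0 of 10 genes and 0% of all genes passed in the 4 comparisons (F2 minus F1 and F3 minus F1 in each sex), with 4 members under 0.05 unadjusted in males for F2 minus F1 (3.69% of all genes), 1 for F3 minus F1 (3.91% of all genes), and 0 in females. For Gstm2 in males the effect in F2 minus that in F1 was -1.19 (adjusted p 0.99998).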

How the data were processed

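RNA of sorted EGFP-positive cells was sequenced in 1 library per embryo (101 libraries). The authors trimmed reads (Trim Galore), aligned them (STAR, mm10), counted them on exons and scaled the counts to library size by TMM in edgeR. The deposited signal values are these scaled counts, made by the authors before deposit. In 99 libraries the size of 1 read could be recovered, and 100% of the values checked then lay within 0.05 of a whole read. Count tests left out the other 2.

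The main test was limma 3.58.1 (trend) in R 4.3.3 on log2 of the value plus 0.5, for genes with a mean of at least 0.5, Benjamini-Hochberg 0.05 over all genes tested. It was fitted over all embryos (8 groups of sex and dose), within each generation (8 groups), and over 24 groups for contrasts of generations. Alternatives were pseudocounts of 0.1 and 1, no filter, a mean of 5, edgeR 4.0.16 quasi-likelihood and likelihood ratio tests on recovered reads, DESeq2 1.42.0 size factors in the quasi-likelihood test, upper quartile scaling, dam as block, littermates averaged, depth class or generation as a term, compared groups alone, and leaving out embryos or generations.

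The 10 genes and all lists were chosen with earlier results of these data known. Named from each other list were the up to 3 genes of smallest p past the threshold, the top gene of each marker list, and up to 3 of the genes most like each member with a mean of at least 5. Labels give the dam. Brother and sister libraries of 15 vehicle litters were checked over 8485 genes: the median r was 0.32 (-0.39 to 0.66). Permutation tests counted both tails. Scripts used Python 3.11.15, numpy 2.4.6, pandas 2.3.3 and scipy 1.17.1.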

Additional observations from a re-analysis of the deposited data

Results flagged for a closer look

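Of 140 groups of 4 to 10 embryos examined, 1 for each member and group, 5 held an embryo set apart from the others by a gap that is large for the range of its group. Chance sets apart about 1 in 20 such groups.

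In F1 vehicle females 1 embryo had 73.9 normalized counts of Gclm, and the next had 46.5. It was a deep library, with 54698496 reads. In F1 males at 2 mg/kg-day 1 embryo, with 6941644 reads, was the highest of 8 for 3 genes: 1329.8 for Gstm1 (next 772), 1373 for Gstm2 (next 669) and 478 for Gstm6 (next 214). It also had the highest summed Sertoli markers of its group, 239 (next 145), and the highest summed fetal Leydig markers, 9.20 (next 5.21). In F3 males at 0.033 mg/kg-day the lowest of 4 embryos had 267 of Gstp1, and the next had 308. No cause of these values was tested.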

How the results depend on the processing

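The sex differences of vehicle embryos over all generations were refitted 160 times (16 alternatives for each of the 10 genes): 151 values kept their direction and side of the threshold. Gstm1 (1.55 to 1.79), Gstm2 (2.35 to 2.78), Gstm6 (2.07 to 2.43), Gstp1 (-1.24 to -1.18), Gclc (-0.68 to -0.58) and Gclm (-0.50 to -0.40) passed in all 16. Gss passed in 6 and Gpx4 in 14. Gsta4 changed sign without F3, at 0.0087. In F1, Gss changed sign with depth class as a term, at 0.17, Gclm passed with it (adjusted p 0.0308; 0.0308 to 0.640 over its alternatives), and Gclc missed the threshold in 7 of 12 alternatives. In F3, Gsr changed sign with the quasi-likelihood test (0.0219), the likelihood ratio test (0.0218) and DESeq2 size factors in the quasi-likelihood test (0.0112). None of the values that changed sign passed the test. The cause was not tested.

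Leaving out each embryo in turn changed the sign of Gss (-0.44 to 0.10) and Gsta4 (-0.24 to 0.0541) in F1, of Gsta4 in F2 (-0.0445 to 0.20) and of Gsr in F3 (-0.0832 to 0.11). Members called ran from 4 to 5 in F1, 6 to 6 in F2 and 5 to 7 in F3, and genes called from 2576 to 3207, 4896 to 5894 and 3636 to 4618. Where this left 1 embryo in a group, as in F1 males at 0.033 mg/kg-day, its variation was taken from the other groups of the fit.

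With a minimum mean of 5, fewer genes were tested and 4758 were called between the sexes over all generations, 2165 in F1, 3451 in F2 and 2530 in F3. Of the genes called in F1, 46.2% were higher in males, and 55.5% were with upper quartile scaling. No scaling moved the median of all genes by more than 0.1 in these comparisons.

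Dose calls varied more. Over the 8 comparisons of all generations 181 genes were called, and the count was 23 and 277 with pseudocounts of 0.1 and 1, 19 with no filter, 414 with a minimum mean of 5, 33 with quasi-likelihood, 60 with DESeq2 size factors in the quasi-likelihood test, 18 with upper quartile scaling, 90 with depth class as a term, 1 with generation as a term, 961 in the compared groups alone, 97 without F1 and 0 without F3. Members were called without F1, 2 of them. Over the 24 comparisons within generations 20 genes were called, and the count was 13 with no filter, 12 with a minimum mean of 5, 11 with quasi-likelihood, 209 with the likelihood ratio test (3 of them members), 10 with DESeq2 size factors in the quasi-likelihood test and 2 in the compared groups alone. For the difference between the sexes in the effect of dose, 0 genes were called in limma, 7 with quasi-likelihood, 5 with the likelihood ratio test and 7 with DESeq2 size factors in the quasi-likelihood test. Why the counts differ was not tested.

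Embryos of 1 dam are not independent. Descent of F2 and F3 embryos from the same F0 dam could not be modelled, as the labels do not give it. With dam as a replicate block the correlation within dams was 0.262, and limma called 8270 genes between the sexes and 8 members, Gss with an adjusted p of 0.0246 beside the 7. The dose comparisons of all generations then called 445 genes and no member, and the sex difference in the effect of dose 1 gene.

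Groups of 2 to 4 embryos at many doses limit what the dose tests can call, and all doses of a sex and generation share 1 set of vehicle embryos. The 11 deep libraries are all in F1, beside shallower ones of that generation. Gss, the lowest of the 10 genes, rested on a median of 128 reads in vehicle females and 98 in vehicle males, which limits its precision. RNA of other cells that passed the gate was measured by markers alone.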

Other observations

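In vehicle embryos of the F1 generation, 1 female and 2 males came from deep libraries. Among the 48 females of all groups 1 embryo, from F3 at 0.033 mg/kg-day, had the highest values of Gstm2 (307) and Gstm6 (106). Its Sertoli sum was 18.5, and its summed pregranulosa markers (30.007) and gonadal stroma markers (67.4) were the highest of the females. The female with the highest Sertoli sum, 113, was another embryo, with 97.5 of Gstm2. Erythroid markers were near 0 in most libraries, with a median sum of 1.41 in females and 0.855 in males, and reached 848 and 2394 in the highest, where Hba-a1 was the most abundant.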
